A study of Homo sapiens with 10 samples.

Results

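The genes described here are 39 genes of DNA replication and of the G1/S transition, measured in a squamous carcinoma line with and without added miR-23b-3p. They were taken by gene symbol from the authors' annotation of 29405 symbols, and the brightest probe set stood for each gene. All 39 had a probe set, and 35 had a single one. UT-SCC-12a (labelled UT-12) is an established human line of cutaneous squamous cell carcinoma, a tumour that arises from keratinocytes. Stable lines were made by lentiviral transduction with a shMIMIC construct, which expresses a microRNA from an integrated provirus. One group of 5 samples carried the miR-23b-3p construct (labelled MiR-23b overexpression) and the other 5 carried a scrambled RNA (labelled control). Every sample was thus transduced, no untransduced cells were analysed here, and the labels do not say whether the 5 samples of a group are separate transductions or cultures. The p-values therefore measure only the spread between these arrays, which may be technical.

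DNA replication begins with licensing in G1, when CDC6 and CDT1 load the MCM2 to MCM7 helicase ring onto origins. At the start of S phase, CDC45 and the GINS complex join that ring and turn it into the active helicase, and a clamp, PCNA, tethers the polymerases behind it. Cyclin E and the E2F transcription factors time this step, and many replication genes are E2F targets transcribed together at G1/S. The added microRNA, with its seed (bases 2 to 8) in capitals, is shown beside the other members of its seed family in RefSeq (GRCh38.p14), since all 3 can pair with the same target sites.
miR-23b-3p: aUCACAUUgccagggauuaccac
miR-23a-3p: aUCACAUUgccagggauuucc
miR-23c: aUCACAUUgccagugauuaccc
The probe set of the MIR23B hairpin itself (hg19 chromosome 9, 97847490 to 97847586) stood at 6.43 ± 0.20 (SD, n = 5) in the overexpressing samples and 6.21 ± 0.22 in the controls. These groups overlapped, with a limma adjusted p of 0.799. The level of the mature microRNA was not examined here.

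Expression was read as log2 values on whole-transcript arrays, and the number of arrays limits the precision. Median values per array lay between 3.14 and 3.19, and within a group the arrays' pairwise Pearson r, taken over probe sets, was 0.991 to 0.994. Mean values of the 39 genes lay between 5.54 and 9.89, above the antigenomic background probes at 3.25 to 3.46 per array. Of 10 keratinocyte markers, ITGA6 (11.04), SFN (10.56), DSG3 (9.85), TP63 (8.63), LAMB3, KRT5 and PKP1 were clearly expressed, while KRT14, KRT6A and KRT17 lay at 3.70 to 3.82, close to background. Markers of fibroblasts, endothelium, blood cells and melanocytes lay between 2.06 and 4.50. The poly-A spikes, RNAs added before labelling, read 5.35 ± 0.093 (SD, n = 5) in overexpressing samples and 5.46 ± 0.020 in controls, so their mean differed between the groups. Differences fitted with the spike level as a covariate are given after the single genes.

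Replication and G1/S genes mostly stood slightly lower with miR-23b-3p, and none of them passed the genome-wide test. Of the 39, 27 were lower, 11 higher and E2F8 differed by 0. Their median log2 difference, overexpressing minus control, was -0.046, against 0.002 over all 48144 tested probe sets and 0.004 over the 12135 with a mean of at least 5. In those backgrounds 48.4% and 47.6% of probe sets were lower. The 10 keratinocyte markers had a median of about the same size, -0.047, with 8 lower, while the 5 endothelial markers, near background, had a median of 0.078 with 0 lower. The part of such differences in the replication genes was not tested. With both replicates 1 left out, a choice made after seeing the values, 23 genes were lower and the median was -0.018. Fewer cells in S phase and less of each transcript per cell cannot be told apart in these bulk samples.

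The helicase subunit gene GINS4 and the polymerase subunit gene POLE2 had the largest differences, and the cyclin gene CCNE2 was the furthest in the other direction. With limma, 0 of 39 genes passed an adjusted p of 0.05, and the lowest adjusted p, that of GINS4, was 0.611. The background for that threshold was 0.0187% of tested probe sets, or 9. At an unadjusted limma p under 0.05 stood GINS4, POLE2 and FEN1 lower (7.69% of the genes) and CCNE2 higher (2.56%). The same rule took 2.95% of all tested probe sets on the lower side and 3.67% on the higher side (6.63% in either), or 4.0% and 4.58% (8.58% in either) of those with a mean of at least 5. The lowest q of the 39 genes in the authors' deposited table was 0.503, for FEN1. In 0 of the 39 were the 5 arrays of one group all to one side of the other 5, a state found in 0.661% of tested probe sets on the lower side and 0.685% on the higher side, and in 1.56% and 1.6% of the brighter ones.

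**Figure D1:**
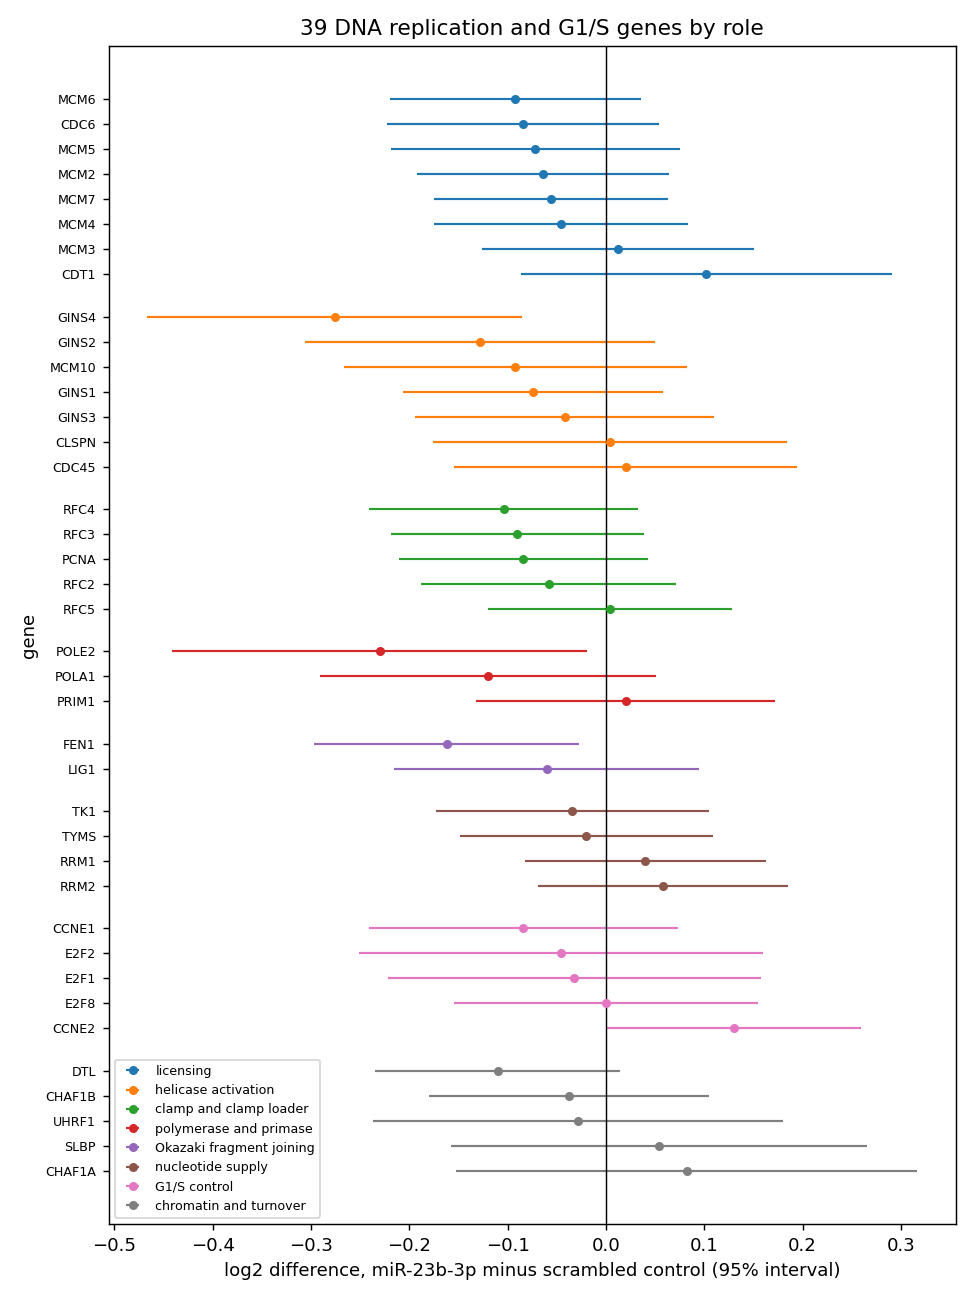
Log2 difference (x axis, overexpressing minus control) of each of the 39 genes (y axis), coloured by role, with limma's 95% interval as a bar. Most points lie left of 0, and only the bars of GINS4, POLE2, FEN1 and CCNE2 leave out 0.

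Licensing genes gave small differences in both directions. MCM6, a helicase ring subunit (hg19 chromosome 2, 136597196 to 136634011, minus strand), read 8.36, 8.37, 8.34, 8.43 and 8.43 in the 5 controls and 8.40, 8.31, 8.26, 8.29 and 8.21 with miR-23b-3p. Overexpressing replicate 1 lay among the controls and the other 4 lay below all of them. The log2 difference of MCM6 was -0.092 (SE 0.059), with an exact two-sided permutation p of 0.0476 and a limma adjusted p of 0.833. The other ring subunits stood at -0.072 (MCM5), -0.064 (MCM2), -0.056 (MCM7), -0.046 (MCM4) and 0.012 (MCM3). Of the 2 loading factors, CDC6 stood at -0.084 (SE 0.064) and CDT1, which geminin inhibits, at 0.10 (SE 0.087). In all, 6 of 8 licensing genes were lower, with a median of -0.060.

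Among genes that turn the loaded ring into a working helicase, 5 of 7 were lower, and GINS4 stood furthest from 0 of all 39. GINS4, also known as SLD5, encodes one of the 4 GINS subunits (hg19 chromosome 8, 41386725 to 41402565, plus strand). It read 6.24, 6.12, 6.02, 6.05 and 5.78 in the controls and 5.71, 5.67, 5.77, 5.94 and 5.74 in the overexpressing samples. Of the overexpressing samples 4 lay below every control, and the groups overlapped through overexpressing replicate 4 and control replicate 5. The difference of -0.28 (SE 0.088), or 1.21-fold less, had a 95% interval of -0.47 to -0.085 and an exact permutation p of 0.0159. Of the other GINS subunits, GINS2 stood at -0.13 (SE 0.082), GINS1 at -0.074 (SE 0.061) and GINS3 at -0.042 (SE 0.070). The sign of GINS3 rested on overexpressing replicate 1, without which it stood at 0.010, and with both replicates 1 left out GINS2 stood at -0.040. MCM10, which helps activate the helicase, stood at -0.092, whereas CDC45 at 0.020 and the checkpoint adaptor CLSPN at 0.004 were close to 0.

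The sliding clamp and its loader followed with 4 of 5 genes lower and a median of -0.084. RFC4, a loader subunit (hg19 chromosome 3, 186507669 to 186524847, minus strand), read 7.99, 7.97, 7.94, 7.99 and 7.90 in the controls. With miR-23b-3p it read 7.76, 7.92, 7.74, 7.93 and 7.92. Replicates 1 and 3 of the overexpressing group were low and the other 3 lay within the range of the controls. RFC4 differed by -0.10 (SE 0.063, exact permutation p = 0.0556), RFC3 by -0.090 (SE 0.059, exact permutation p = 0.0397) and RFC2 by -0.058. PCNA, the clamp itself, lay between 9.80 and 9.89 in the overexpressing samples and between 9.84 and 10.02 in the controls, a difference of -0.084 (SE 0.058), while RFC5 stood at 0.004.

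Of the polymerase and primase genes 2 were lower and 1 slightly higher. POLE2, a non-catalytic subunit of the leading strand polymerase epsilon (hg19 chromosome 14, 50110270 to 50155140, minus strand), read 6.24, 6.37, 6.38, 6.36 and 6.22 in the controls and 5.79, 6.13, 5.95, 6.34 and 6.21 in the overexpressing samples. Overexpressing replicates 1 and 3 were the lowest of the 10 arrays and replicate 4 lay well inside the range of the controls. The difference was -0.23 (SE 0.097, exact permutation p = 0.0397, limma adjusted p = 0.733), and without overexpressing replicate 1 it was -0.16. POLA1, the catalytic subunit of the polymerase that extends primers, stood at -0.12 (SE 0.079), and PRIM1, the primase that makes them, at 0.020 (SE 0.070).

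Of the genes of Okazaki fragment joining, FEN1 had the larger difference. FEN1, the nuclease that trims the flaps of lagging strand fragments (hg19 chromosome 11, 61560109 to 61564716, plus strand), read 6.52, 6.47, 6.41, 6.47 and 6.34 in the controls and 6.29, 6.25, 6.37, 6.31 and 6.18 with miR-23b-3p. The groups overlapped only through control replicate 5 and overexpressing replicate 3. FEN1 differed by -0.16 (SE 0.062), or 1.12-fold less, with an exact permutation p of 0.0159 and a limma adjusted p of 0.701. LIG1, the ligase that seals the fragments, stood at -0.060 (SE 0.071), and at -0.018 without overexpressing replicate 5.

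Genes of nucleotide supply showed no common direction, 2 lower and 2 higher with a median of 0.010. RRM2, the regulated subunit of ribonucleotide reductase (hg19 chromosome 2, 10262455 to 10271546, plus strand), read 7.75, 7.68, 7.70, 7.76 and 7.79 in the controls and 7.85, 7.70, 7.81, 7.75 and 7.86 in the overexpressing samples. The groups overlapped widely, and the difference of 0.058 (SE 0.059) had a 95% interval of -0.069 to 0.19. Its partner subunit gene RRM1 stood at 0.040, the thymidine kinase gene TK1 at -0.034 and the thymidylate synthase gene TYMS at -0.020.

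In G1/S control the cyclin E genes stood on opposite sides of 0. CCNE2, which like CCNE1 encodes a cyclin E that activates CDK2 (hg19 chromosome 8, 95891998 to 95908906, minus strand), read 6.20, 6.09, 6.13, 6.15 and 6.08 in the controls and 6.18, 6.35, 6.22, 6.32 and 6.23 in the overexpressing samples. All overexpressing samples except replicate 1 lay above all controls. CCNE2 differed by 0.13 (SE 0.060), or 1.09-fold more, with an exact permutation p of 0.0159 and a limma adjusted p of 0.750. CCNE1 (hg19 chromosome 19, 30302901 to 30315216) stood at -0.084 (SE 0.072), with groups that overlapped, and at -0.014 with the spike covariate. Taken within each array, CCNE2 minus CCNE1 averaged -0.118 with miR-23b-3p and -0.332 in the controls, a difference of 0.214. The exact permutation p of that difference was 0.0317, unadjusted. The pair was chosen after its values were seen, and the groups overlapped (-0.28 to -0.01 against -0.51 to -0.19). The activating factors E2F1 and E2F2 stood at -0.032 (SE 0.087) and -0.046 (SE 0.095), and the repressive E2F8 averaged 7.86 in either group.

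Among genes that copy chromatin or clear replication factors, 3 of 5 were lower. DTL, which directs the ubiquitin ligase that destroys CDT1 in S phase (hg19 chromosome 1, 212208919 to 212280742, plus strand), read 9.19, 9.21, 9.27, 9.15 and 9.13 in the controls and 9.02, 9.14, 9.06, 9.06 and 9.12 with miR-23b-3p. The groups overlapped only through overexpressing replicate 2 and control replicate 5. DTL differed by -0.11 (SE 0.057, exact permutation p = 0.0159, limma adjusted p = 0.789). The histone chaperone genes CHAF1B and CHAF1A stood at -0.038 (SE 0.066) and 0.082 (SE 0.11), UHRF1, which brings DNA methyltransferase to new DNA, at -0.028 (SE 0.096), and SLBP, which binds histone mRNA, at 0.054 (SE 0.097).

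**Figure D2:**
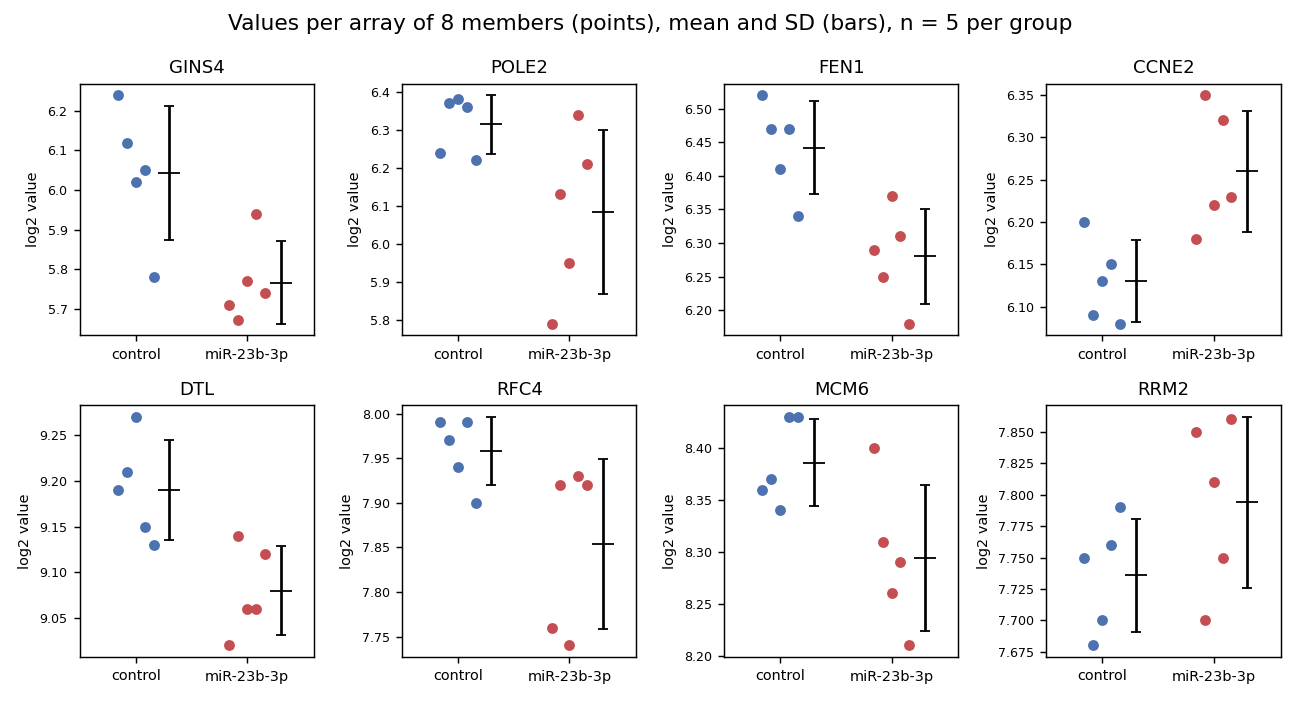
Log2 values (y axis) of each array by group (x axis) for the genes with the smallest limma p in each role, with the mean and SD as bars (n = 5 per group). GINS4, POLE2, FEN1, DTL, RFC4 and MCM6 have lower means with miR-23b-3p, CCNE2 and RRM2 higher ones, and in every panel the groups overlap.

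By the exact permutation test, unadjusted and run on each of the 39 genes, 7 had p under 0.05 (17.9%), namely GINS4, FEN1, DTL, POLE2, RFC3 and MCM6 on the lower side and CCNE2 on the higher side. The same rule took 6.19% of all tested probe sets and 10.5% of those with a mean of at least 5. Without control replicate 2, or without control replicate 4, 4 of the 39 genes had such a p. The p-values of the authors' deposited table were under 0.05 for 7 of the 39 genes, with PCNA in the place of POLE2, and for 6.57% of the tested probe sets, or 11.3% of the brighter ones. Limma's 95% intervals lay within -0.3 and 0.3 for 35 of the 39 genes. The exceptions were GINS4, POLE2, GINS2 and CHAF1A. Further probe sets existed for 4 genes, 7 in all, at mean levels of 2.20 to 4.32. Those of GINS2 (3.48), MCM5 (3.18) and RRM1 (2.45) and 3 of the 4 of CHAF1B lay near or below the antigenomic probes, so their differences, like that of the fourth (4.32), were not set against the brighter ones.

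Averaged over the 39 genes, the deviation of each array from the gene's overall mean was 0.072, -0.007, 0.005, 0.049 and -0.002 in the controls and -0.069, -0.025, 0.002, -0.010 and -0.015 in the overexpressing samples. The extremes were the 2 replicates numbered 1, and the remaining arrays of both groups lay close together, apart from control replicate 4. All probe sets with a mean of at least 5 also averaged low in overexpressing replicate 1, at -0.035, while in control replicate 1 they averaged 0.012, within the range of the other controls. Centring every array on those bright probe sets, also chosen after seeing the values, left 28 of 39 genes lower and a median of -0.049. With the poly-A spike level as a covariate the median was -0.037 with 27 lower, GINS4 stood at -0.41 (SE 0.11), POLE2 at -0.30 (SE 0.14), FEN1 at -0.23 (SE 0.084) and CCNE2 at 0.097 (SE 0.084). Spike levels spanned 5.44 to 5.48 in the controls, and 5.20 (replicate 4) to 5.46 (replicate 5) in the overexpressing samples. The fitted spike effect thus rests mostly on the overexpressing arrays. Among them, replicate 4 also read highest for GINS4 and POLE2. The covariate widened the SE of the 39 genes to 0.078 to 0.15. For 15 of them the difference grew or shrank by over 1.5 times and kept its sign. The covariate turned the sign of TK1 (0.037), E2F2 (0.077) and CDC45 (-0.069), with E2F8 at -0.016. Among those further from 0 with it were UHRF1 at -0.18, MCM10 at -0.16, LIG1 at -0.15 and RRM2 at 0.099. Among those nearer to 0 were POLA1 at -0.064, MCM5 at -0.037 and MCM2 at -0.027. Leaving out some single array moved 28 of the 39 genes by over 1.5 times or in sign, 12 of them to the other sign or to 0. GINS4, POLE2, FEN1, DTL, RFC4, MCM6, CCNE2 and RRM2 were not among the 28. These genes were picked by small p-values on these same arrays, which favours that outcome.

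**Figure D3:**
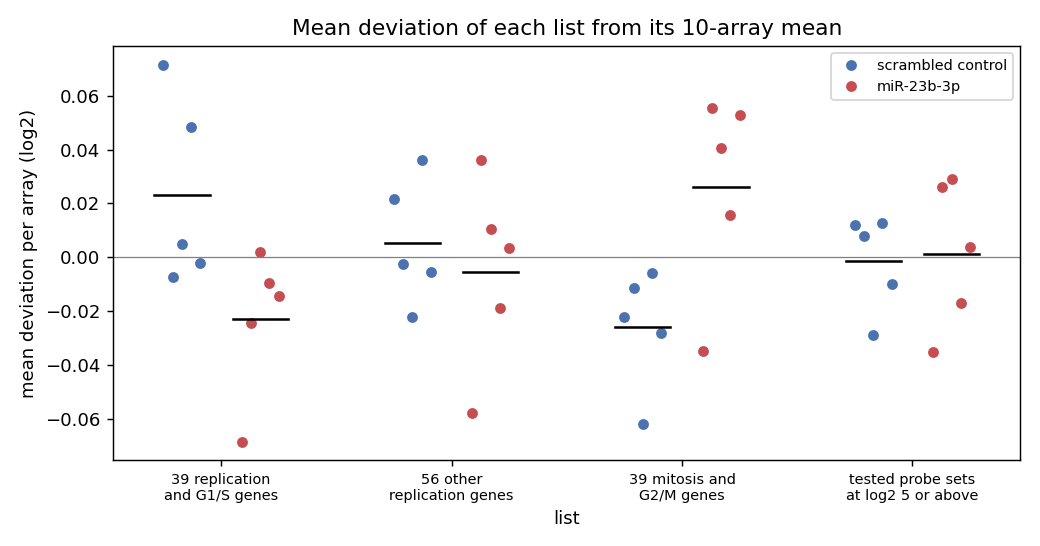
Mean log2 deviation of each array (y axis) from the 10-array mean for 3 gene lists and for all probe sets with a mean of at least 5 (x axis), with black lines at the group means. The 39 replication and G1/S genes lie lower in most overexpressing arrays, and mitosis genes lie higher in all overexpressing arrays except replicate 1.

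Other replication genes had a median closer to 0. Of 56 further genes of origins, polymerases and fork factors, 30 were lower, 23 higher and 3 at 0, with a median of -0.007, and 0 passed limma's adjusted threshold. At an unadjusted p under 0.05 stood 2 lower and 2 higher (3.57% each). That was near the 2.95% and 3.67% of all tested probe sets and the 4.0% and 4.58% of those with a mean of at least 5. DBF4, the activator of the CDC7 kinase that fires origins, lay between 6.65 and 6.88 with miR-23b-3p and between 6.92 and 7.01 in the controls, a difference of -0.21 (SE 0.061, limma adjusted p = 0.521). TOP1, the topoisomerase that relieves DNA twist, differed by -0.19 (SE 0.059), and the origin subunit gene ORC5 and the licensing inhibitor gene GMNN stood at -0.13 (SE 0.061) and -0.15 (SE 0.073). CDK2, the kinase partner of cyclin E, lay between 7.45 and 7.59 with miR-23b-3p and between 7.25 and 7.43 in the controls, a difference of 0.18 (SE 0.060, limma adjusted p = 0.650). CHTF18, of an alternative clamp loader, stood at 0.25 (SE 0.079), the helicase gene RECQL4 at 0.16 (SE 0.097) and the polymerase delta subunit gene POLD4 at 0.17 (SE 0.11), or 0.26 with the spike covariate. For DBF4, TOP1 and CDK2, and for MCMBP at -0.058 (named after its values were seen), the groups did not overlap, each with an exact permutation p of 0.00794, the smallest that 5 against 5 arrays can give. These were 3 genes lower and 1 higher of the 56. Such groups were found in 0.661% of all tested probe sets on the lower side and 0.685% on the higher side. Of those with a mean of at least 5, the shares were 1.56% and 1.6%.

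Mitosis and G2/M genes, set beside these as the next step of the cycle, mostly stood higher. Of 39 measured, 32 were higher, 6 lower and 1 at 0, with a median of 0.052, and 0 passed limma's adjusted threshold, while 3 had an unadjusted p under 0.05, all higher (7.69%, against 3.67% of all tested probe sets and 4.58% of the brighter ones). The groups did not overlap for 4 genes, SPC24, NEK2, NUSAP1 and TPX2, all higher. Such groups on the higher side were found in 0.685% of all tested probe sets and 1.6% of the brighter ones. An exact permutation p under 0.05 was found for 9 genes (23.1%), against 6.19% of all tested probe sets and 10.5% of the brighter ones. Those with an unadjusted limma p under 0.05 were SPC24, of the kinetochore, at 0.17 (SE 0.060), the mitotic kinase gene NEK2 at 0.13 (SE 0.054) and CDCA3 at 0.19 (SE 0.082). AURKB, of the chromosome passenger complex, stood at 0.17 (SE 0.078), and the lowest were ESPL1 at -0.082, CDCA5 at -0.084, CENPE at -0.062 and HMMR at -0.054. With the spike covariate CDCA3 stood at 0.34, CDCA5 at -0.17 and CENPE at -0.12. Per array, the mitosis genes averaged -0.022, -0.012, -0.062, -0.006 and -0.028 in the controls and -0.035, 0.056, 0.041, 0.016 and 0.053 in the overexpressing samples. Overexpressing replicate 1 was thus low in both lists, while the other 4 were above all controls for mitosis genes. The contrast between the lists was not tested.

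**Figure D4:**
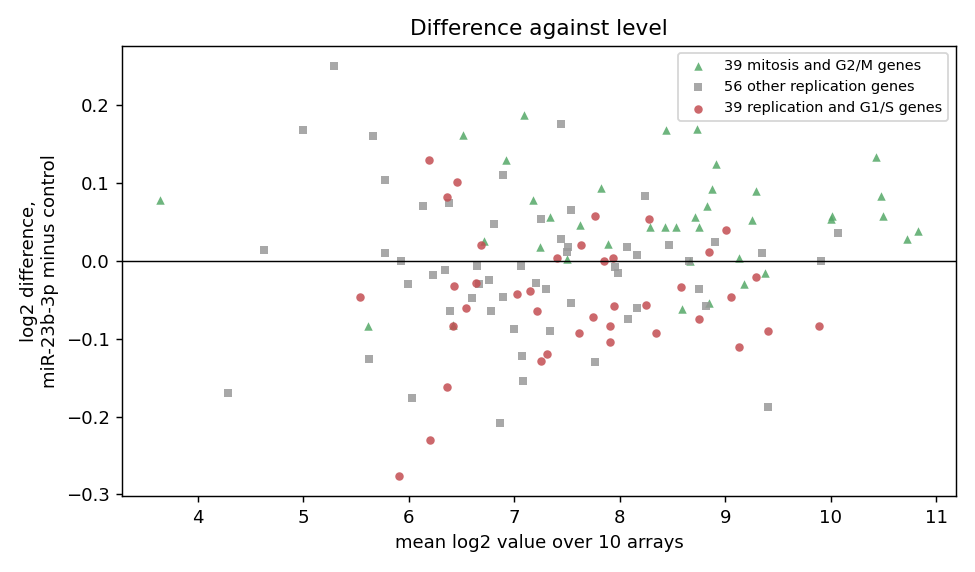
Log2 difference (y axis, overexpressing minus control) against the mean log2 value over 10 arrays (x axis) for the 39 replication and G1/S genes, 56 other replication genes and 39 mitosis and G2/M genes, 1 point per gene. Most replication and G1/S points lie below 0 and most mitosis points above it, at overlapping levels, and GINS4, at -0.28, is the lowest point of all.

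Promoters were searched for the E2F binding sequence, since E2F control is what these genes are known for. RefSeq promoters (GRCh38.p14, 250 bases before to 50 after a start) matched 34 of the 39 genes by symbol, and those of GINS4, CCNE2, MCM4, MCM5 and E2F8 were not used here. The forms TTTCCCGC, TTTCGCGC, TTTGCCGC and TTTGGCGC were searched on both strands, and matches may overlap one another. At least 1 form was present in 20 of the 34 genes (58.8%), against 3.99% of 27305 genes in the table, 15 of 45 other replication genes (33.3%) and 4 of 34 mitosis genes (11.8%). The letters CCAAT, the box bound by NF-Y, were present in 58.8% of the 34 genes, 79.4% of the mitosis genes and 39.7% of all genes. Genes with an E2F form were lower in 17 of 20 cases, with a median of -0.062, and those without in 7 of 14, with a median of -0.015, a difference that was not tested. Shown for 4 genes named above are 160 bases before and 10 after the start, with E2F forms in capitals: MCM6 has 2 pairs of overlapping matches, DTL and POLE2 have 1 match each, beginning 8 and 5 bases before the start, and FEN1 has none.
MCM6 (chr2:135876434-135876603, minus strand): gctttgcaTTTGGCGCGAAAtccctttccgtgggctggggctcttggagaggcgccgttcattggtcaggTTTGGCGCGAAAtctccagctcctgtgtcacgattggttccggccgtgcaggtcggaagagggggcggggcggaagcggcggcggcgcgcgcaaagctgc
DTL (chr1:212035588-212035757, plus strand): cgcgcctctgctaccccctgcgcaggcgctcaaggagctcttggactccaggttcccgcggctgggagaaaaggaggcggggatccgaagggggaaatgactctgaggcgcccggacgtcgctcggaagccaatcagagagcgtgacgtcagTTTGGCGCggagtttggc
POLE2 (chr14:49688205-49688374, minus strand): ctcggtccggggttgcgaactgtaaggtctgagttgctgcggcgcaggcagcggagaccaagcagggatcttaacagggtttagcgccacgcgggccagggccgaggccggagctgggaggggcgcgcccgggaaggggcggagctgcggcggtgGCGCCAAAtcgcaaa
FEN1 (chr11:61792751-61792920, plus strand): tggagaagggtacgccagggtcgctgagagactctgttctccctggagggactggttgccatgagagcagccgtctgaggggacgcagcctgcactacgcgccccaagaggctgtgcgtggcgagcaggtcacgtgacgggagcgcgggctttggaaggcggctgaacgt
A match describes the letters in this window and not binding of a factor, and a gene without a match may still be an E2F target.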

How the data were processed

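Total RNA of 10 samples, 5 per group, was measured on Affymetrix human gene arrays. Titles gave each sample its group and number. The log2 values the authors deposited were made in Expression Console by RMA, that is median polish after background correction and quantile normalization, per the file headers. The authors' table gave symbols and hg19 coordinates (NetAffx build 36), signed fold changes, and p-values and q-values of Student's test, per the file headers. Within a relative tolerance of 0.001, its fold of B over A was the overexpressing to control ratio in all 53617 rows. Its 10 columns of values per array match no sample label and were not used.

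All 48144 main and rescue probe sets were fitted with limma 3.58.1 (lmFit, eBayes) in R 4.3.3 with group as the single term, and p-values were adjusted over all of them by Benjamini-Hochberg. The 5473 others are array controls and reporters and were not tested. SE is limma's moderated standard error, and the exact two-sided permutation test used the 252 splits of 10 arrays into 5 and 5. In a simulation, 50 differences each of 0.3, 0.5, 0.7 and 1 log2 were planted together in probe sets with a mean above 5. Limma at an adjusted p under 0.05 recovered 20% of those of 0.3 and 76% of those of 0.5. It recovered 92% of those of 0.7 and 88% of those of 1. So many planted differences loosen the adjusted threshold. The deposited values gave only 9 calls, so recovery there would be lower. The largest absolute difference of the 39 genes was 0.276. The lack of calls among them therefore does not show that they were unchanged. No 2 arrays shared more than 2.16% of identical values. The genes and lists were chosen with earlier results of these data known, so no list was tested. Values per array are given for those of the 39 genes with an unadjusted limma p under 0.05 and for the smallest p in each of 8 roles. Of the other lists, up to 4 genes in each direction with the smallest p are named with their differences. BUB1B had no probe set under its symbol. Same-numbered arrays of both groups did not deviate together (r from -0.10 to 0.043), so the numbers were not taken as pairs.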

Additional observations from a re-analysis of the deposited data

Results flagged for a closer look

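In groups of 5 arrays, a single array stood apart from the other 4 by Dixon's criterion in 6 of 118 groups checked, where chance flags about 1 in 20. Among the replication genes, POLA1 read 7.15 in 1 control array against 7.39 to 7.46 in the other 4, and E2F2 read 5.25 in 1 control array against 5.57 to 5.69. LIG1 read 6.34 in 1 overexpressing array against 6.53 to 6.58, and TYMS read 9.15 in 1 overexpressing array against 9.30 to 9.36. Of the mitosis genes, NEK2 read 6.77 in 1 control array against 6.87 to 6.88, and HMMR read 8.66 in 1 overexpressing array against 8.83 to 8.88. The differences of POLA1, E2F2, LIG1 and TYMS between the groups did not pass the threshold.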

How the results depend on the processing

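Over 21 alternatives, 0 of the 39 genes were called in any, and the lowest adjusted p of a gene was 0.462 (GINS4, limma with a trended and robust prior). Some of these alternatives change only the spread or the set of probe sets tested, and could not move a difference. They were Welch's test, the trended and robust prior, the replicate block, and the fits without the dimmest probe sets or without those lacking a symbol. The ranges of counts and medians therefore come from the other alternatives. The number of genes lower ranged from 23 to 31 and the median from -0.066 to -0.018, so it stayed below 0; the lowest and highest without a single array were -0.066 and -0.034, and -0.018 came from leaving out both replicates 1. All 24 genes named by rule kept their direction. The rule took the smallest p-values of these same arrays, which favours that outcome, so it is no separate support. Of the 39, 14 changed sign or stood at 0 under some alternative. They were MCM3, CDC45, GINS3, CLSPN, RFC5, PRIM1, TYMS, TK1, E2F1, E2F2, E2F8, UHRF1, CHAF1A and SLBP. Calls over the whole table, 9 as reported, were 39 with a trended and robust prior, 3 with Welch's test, 2 with the poly-A spike covariate, 4 without both replicates 1, and 5 to 8 without a single array. With the replicate block, 1 probe set was called. No pairing by replicate number was seen, since 0 of 5 overexpressing arrays correlated best with the control of the same number. That check could miss a weak pairing or one that touches few genes. Genes with an exact permutation p under 0.05, 7 as reported, ranged from 4 to 9 without a single array, 4 coming from leaving out control replicate 2 or 4. The causes of these shifts were not tested. All 39 probe sets were of cross-hybridization type 1. Array number and 2-decimal values limit what differences of this size can show.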
